A study of Mus musculus with 48 samples.

Results

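Radiation of an anti-PD-1-treated sarcoma was read at the level of messenger RNA in 8 allograft tumours, 4 that received 20 Gy to the hind limb and 4 that received 0 Gy, out of the 48 tumour libraries of the series. Members were chosen by the tumour kind, dose and antibody in the labels and not by any measured value, and all genes were examined. The allografts grew from 50000 cells of the p53/MCA sarcoma line 402230, injected with matrigel into the gastrocnemius (calf muscle) of syngeneic 129/SvJae mice. Tumours were treated at about 150 mm3. All 8 mice received 200 ug of muDX400, a murine antibody against the T cell inhibitory receptor PD-1, just before 0 or 20 Gy, and tumours were taken 3 days later. The antibody is therefore common to both groups, and dose is the one labelled treatment in which they differ. All allografts come from 1 cell line, so that separate tumours are separate transplants and not separate cancers. The other groups used here are the 8 allografts that had an isotype antibody in place of muDX400 (4 at 0 Gy, 4 at 20 Gy) and 16 muDX400-treated primary tumours (8 per dose), which arose in p53FL/FL mice after intramuscular Adeno-Cre, which deletes the floxed p53 alleles, and the carcinogen MCA. Tumours are named below by dose and number. The numbers follow the order of deposit and pair nothing across groups.

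Ionizing radiation breaks DNA, and in cells with working p53 the break signal induces p53 target genes that hold the cell cycle or start cell death. DNA or RNA that reaches the cytosol of damaged cells is recognised by sensors such as cGAS and the RIG-I-like receptors, which lead to interferon beta and, through the interferon receptor and the factors STAT2 and IRF9, to a set of antiviral genes. PD-1 is the receptor on activated T cells for PD-L1, and interferons are known inducers of the PD-L1 gene. A whole tumour also holds macrophages, lymphocytes, vessels and muscle, and in such bulk RNA fewer cells of a type and less RNA per cell cannot be told apart.

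The libraries of the 2 groups overlapped in their technical measures. Totals ran from 40.3 to 54.0 M counts at 0 Gy and from 36.8 to 41.9 M at 20 Gy (two-sided exact permutation test, p = 0.114, where 0.0286 is the smallest p that 4 against 4 allows). Mitochondrial genes took 0.952 to 1.5% of counts at 0 Gy and 0.483 to 2.71% at 20 Gy (exact p = 0.6). The groups were not balanced in Xist, which is transcribed from the inactive X chromosome of female cells and here can report on the host or on the line. It stood at 0.397, 75.8, 0.210 and 0.125 CPM (counts scaled to a common library size) at 0 Gy and at 69.8, 586, 0.886 and 99.9 CPM at 20 Gy (exact p = 0.171). It was above 10 CPM in 1 of 4 against 3 of 4 tumours, and its part in the results below was not tested beyond a fit with that split as a covariate. The summed CPM of the Y-linked genes Ddx3y, Eif2s3y, Kdm5d and Uty was 127.9, 71.9, 136.7 and 138.4 at 0 Gy. At 20 Gy it was 85.9, 23.5, 136.1 and 78.1. Y-linked RNA was thus present in every tumour, and lower in each tumour with Xist above 10 CPM than in any other. Which cells held the Xist and Y-linked transcripts was not tested. Trp53 read 25.3 to 46.3 CPM at 0 Gy and 39.1 to 46.6 CPM at 20 Gy (log2 fold change 0.34 ± 0.18 SE, adjusted p = 0.308). These are counts over the whole gene from tumour and host cells together, so they do not check the state of p53 in the line.

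More genes were called higher than lower in the irradiated tumours. Of 17746 genes tested, 703 (3.96%) were called, meaning an adjusted p under 0.05 in edgeR's quasi-likelihood test with Benjamini-Hochberg adjustment over all genes. Higher after 20 Gy were 556 genes (3.13%) and lower were 147 (0.828%). A change of over 2-fold was seen in 407 of the raised and 58 of the lowered genes. The median log2 fold change of all tested genes was 0.02, a value that the scaling itself holds near 0. In 1062 tested genes (5.98%) every irradiated tumour was above every unirradiated one, and in 459 (2.59%) every irradiated tumour was below. Of the 703 called genes, 660 had groups that did not overlap. The higher share of the calls was 79.1% and fell to 67.8% with upper-quartile scaling (617 higher, 293 lower), to 60.5% with DESeq2 (1006 higher, 658 lower) and to 55.2% without 20 Gy tumour 4 (704 higher, 571 lower). The calls rest on a spread estimated over all 16 allografts. A fit of only the 8 tumours called 1 gene, Slfn4, with 2403 genes at an unadjusted p under 0.05. The 689 of the 703 called genes tested in it all kept their direction, which could hardly change because the same 8 tumours set it. A fit of only the 8 isotype allografts called 1041 genes (857 higher, 184 lower). Single tumours mattered to the 703 calls as well. The count was 184 without 0 Gy tumour 4, 231 without 20 Gy tumour 3, 266 without 0 Gy tumour 2, 435 without 20 Gy tumour 2 and 1275 without 20 Gy tumour 4.

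**Figure D1:**
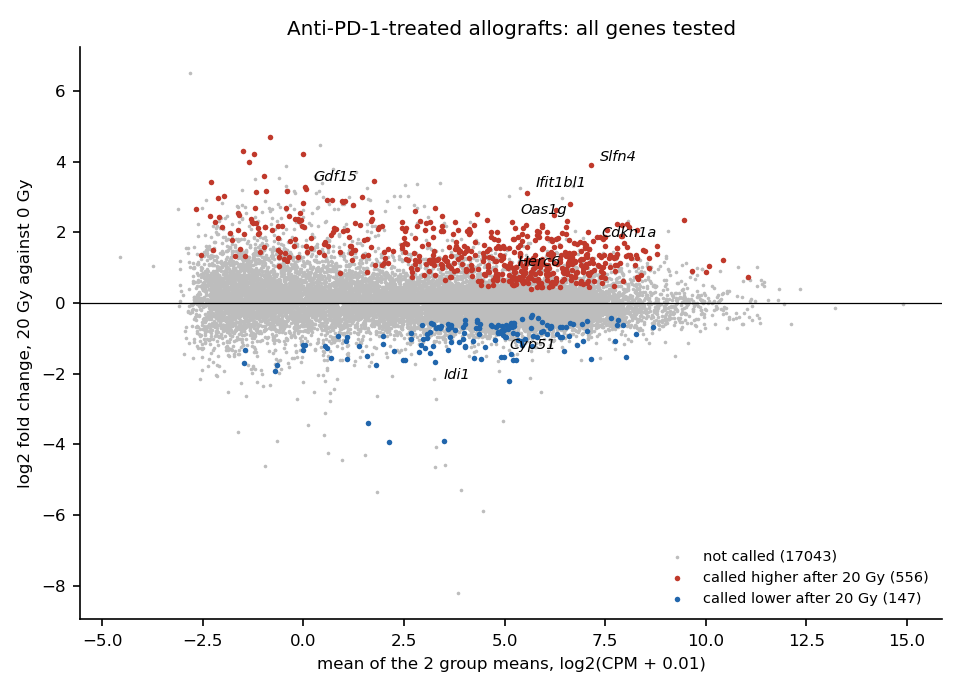
Each point is 1 of the 17746 genes tested, with the mean of the 2 group means (log2 of CPM plus 0.01) on the x axis and the log2 fold change of 20 Gy against 0 Gy on the y axis. Red points are the 556 genes called higher, blue points the 147 called lower and grey points genes not called. Red points outnumber blue points, and 407 of the red against 58 of the blue lie beyond a 2-fold change.

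Slfn4, a Schlafen family gene that interferon induces in myeloid cells, had the smallest p of all genes. It measured 22.9, 13.5, 21.8 and 13.1 CPM in the 0 Gy tumours and 223, 212, 413 and 220 CPM in the 20 Gy tumours. The irradiated group thus began far above the unirradiated one, with 20 Gy tumour 3 highest, and the log2 fold change was 3.91 ± 0.33 (adjusted p = 8.71e-05). Herc6, the main ligase that attaches the ubiquitin-like ISG15 protein in mice, went from 15.6, 19.7, 20.6 and 13.6 CPM to 58.5, 44.0, 48.9 and 54.4 CPM (1.56 ± 0.19, adjusted p = 0.00219). Ifit1bl1, of the interferon-induced tetratricopeptide family, went from 12.6, 7.10, 15.6 and 3.81 CPM to 91.2, 55.8, 133.5 and 57.0 CPM (3.11 ± 0.39, adjusted p = 0.00252). Both genes were separated without overlap, and 0 Gy tumour 4 held the lowest value of each. Ikbke, a kinase that activates interferon regulatory factors, measured 37.6, 33.5, 45.5 and 26.3 CPM against 74.3, 86.1, 91.6 and 88.6 CPM (1.25 ± 0.17, adjusted p = 0.00336). The other genes among the 10 raised genes of smallest p with at least 5 CPM were Lst1 (1.81 ± 0.25), H2-K2 (1.61 ± 0.23), BC147527 (3.45 ± 0.49), Mndal (1.09 ± 0.16), Slfn8 (1.46 ± 0.21) and Oas1g (2.29 ± 0.33), with adjusted p between 0.00426 and 0.00466. Lst1 is a leukocyte transcript, Mndal belongs to the interferon-inducible HIN-200 family and Oas1g to the 2′-5′ oligoadenylate synthetases. Members of the Schlafen, Oas1, HIN-200 and H2 families are near copies of each other, so reads may be split between them and single values are uncertain.

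The lowered genes of smallest p belonged in large part to sterol synthesis. Idi1, which makes the building block dimethylallyl diphosphate, measured 18.8, 10.4, 13.0 and 16.4 CPM at 0 Gy and 3.71, 4.90, 5.29 and 4.4 CPM at 20 Gy (−1.68 ± 0.22, adjusted p = 0.00333). Cyp51, the lanosterol demethylase, went from 46.3, 29.8, 41.5 and 59.7 CPM to 16.7, 10.9, 15.2 and 18.9 CPM (−1.52 ± 0.22, adjusted p = 0.00457). Neither gene overlapped between groups, and 20 Gy tumour 2 was lowest for Cyp51 but not for Idi1. Other lowered genes under the same rule were Acat2 (−1.25 ± 0.20) and Mvd (−0.97 ± 0.16), both sterol pathway enzymes, Fads1, a fatty acid desaturase (−0.89 ± 0.15), Depdc1b (−1.20 ± 0.19), Mum1l1 (−1.15 ± 0.18) and Tfdp2, a partner of the E2F factors (−0.80 ± 0.14).

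**Figure D2:**
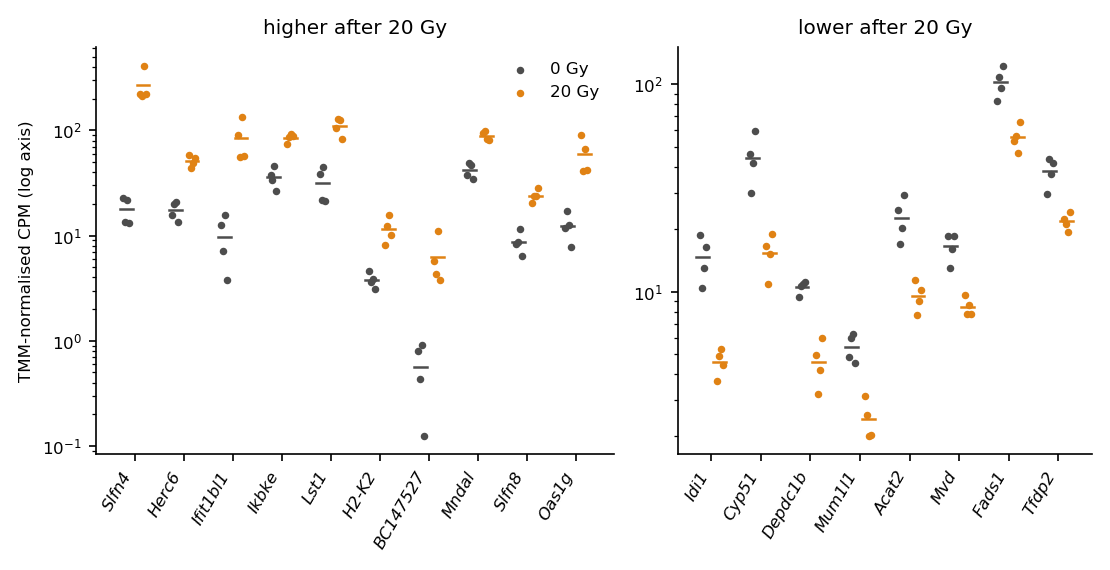
TMM-normalised CPM (log axis) of each tumour for 10 genes called higher and 8 called lower after 20 Gy. Grey points are the 4 tumours at 0 Gy, orange points the 4 at 20 Gy and bars the group means. In each gene shown, the 2 groups do not overlap.

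Promoter sequence was set beside these genes because antiviral genes are known to carry an interferon-stimulated response element and sterol genes a sterol response element. The windows run from 250 bases before to 50 bases after the annotated start, 5′ to 3′ on the gene's strand, from RefSeq annotation of GRCm38.p6. Both strands were searched for GAAANNGAA (interferon-stimulated response element), TCACNCCAC (sterol response element) and TTTCCCGC (E2F), and capitals mark a match. The first 4 windows are the raised and the next 2 the lowered genes of smallest p that have an entry. They are Slfn4 (chr11:83174936-83175235, + strand), Herc6 (chr6:57580742-57581041, + strand), Ifit1bl1 (chr19:34601919-34602218, − strand), Ikbke (chr1:131279514-131279813, − strand), Idi1 (chr13:8885356-8885655, + strand) and Cyp51 (chr5:4104648-4104947, − strand). The last 3 were added after values were seen, as the antiviral effectors of smallest p that hold a match: Slfn8 (chr11:83020761-83021060, − strand), Rsad2 (chr12:26456403-26456702, − strand) and Oas1a (chr5:120907476-120907775, − strand).
Slfn4: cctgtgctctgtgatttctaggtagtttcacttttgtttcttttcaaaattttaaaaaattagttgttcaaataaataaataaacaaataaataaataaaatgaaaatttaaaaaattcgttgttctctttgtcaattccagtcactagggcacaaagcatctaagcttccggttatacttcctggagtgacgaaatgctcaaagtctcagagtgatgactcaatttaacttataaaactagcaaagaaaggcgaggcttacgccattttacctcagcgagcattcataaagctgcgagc
Herc6: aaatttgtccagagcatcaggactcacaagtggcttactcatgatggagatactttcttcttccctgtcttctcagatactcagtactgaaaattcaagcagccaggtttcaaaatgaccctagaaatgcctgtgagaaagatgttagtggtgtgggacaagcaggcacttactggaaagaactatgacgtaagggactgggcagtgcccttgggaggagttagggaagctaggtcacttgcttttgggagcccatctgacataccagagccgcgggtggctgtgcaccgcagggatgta
Ifit1bl1: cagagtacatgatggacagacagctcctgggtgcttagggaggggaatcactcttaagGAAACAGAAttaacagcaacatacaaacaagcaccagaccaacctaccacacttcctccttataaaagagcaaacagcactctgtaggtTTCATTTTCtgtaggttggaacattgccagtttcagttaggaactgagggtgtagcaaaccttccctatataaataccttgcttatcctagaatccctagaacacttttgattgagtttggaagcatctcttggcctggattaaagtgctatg
Ikbke: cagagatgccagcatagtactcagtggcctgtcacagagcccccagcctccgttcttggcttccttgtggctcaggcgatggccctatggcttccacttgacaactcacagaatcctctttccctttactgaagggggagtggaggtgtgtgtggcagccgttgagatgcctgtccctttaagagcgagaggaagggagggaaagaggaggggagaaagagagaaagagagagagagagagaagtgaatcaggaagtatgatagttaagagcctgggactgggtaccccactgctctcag
Idi1: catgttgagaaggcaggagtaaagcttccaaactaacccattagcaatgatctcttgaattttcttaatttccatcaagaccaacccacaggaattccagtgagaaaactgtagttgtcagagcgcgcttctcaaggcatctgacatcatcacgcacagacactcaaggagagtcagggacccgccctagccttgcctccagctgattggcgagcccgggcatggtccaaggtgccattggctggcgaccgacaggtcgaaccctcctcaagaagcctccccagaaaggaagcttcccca
Cyp51: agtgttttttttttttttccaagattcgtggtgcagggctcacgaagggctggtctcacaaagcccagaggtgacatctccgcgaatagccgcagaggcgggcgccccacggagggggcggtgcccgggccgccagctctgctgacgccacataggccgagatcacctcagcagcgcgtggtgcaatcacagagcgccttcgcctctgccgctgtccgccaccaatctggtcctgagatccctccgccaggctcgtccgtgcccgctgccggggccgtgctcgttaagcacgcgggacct
Slfn8: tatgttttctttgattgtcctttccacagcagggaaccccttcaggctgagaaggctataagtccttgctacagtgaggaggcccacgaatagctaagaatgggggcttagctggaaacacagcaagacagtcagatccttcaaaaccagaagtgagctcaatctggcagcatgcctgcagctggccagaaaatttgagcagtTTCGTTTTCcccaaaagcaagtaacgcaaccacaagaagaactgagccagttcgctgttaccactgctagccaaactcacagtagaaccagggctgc
Rsad2: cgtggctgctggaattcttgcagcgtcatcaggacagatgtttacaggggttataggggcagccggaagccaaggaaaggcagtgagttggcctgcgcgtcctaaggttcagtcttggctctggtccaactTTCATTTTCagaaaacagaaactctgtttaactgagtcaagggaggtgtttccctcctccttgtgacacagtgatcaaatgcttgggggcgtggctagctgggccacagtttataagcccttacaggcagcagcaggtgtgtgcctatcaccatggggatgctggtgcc
Oas1a: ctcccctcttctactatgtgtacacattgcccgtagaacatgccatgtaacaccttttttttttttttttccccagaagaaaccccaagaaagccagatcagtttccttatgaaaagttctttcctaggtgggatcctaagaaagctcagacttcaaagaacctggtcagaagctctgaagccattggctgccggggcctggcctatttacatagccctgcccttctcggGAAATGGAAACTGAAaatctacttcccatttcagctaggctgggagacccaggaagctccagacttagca

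Of the 6 windows chosen by p alone, only that of Ifit1bl1 held a match, with GAAACAGAA beginning 192 bases before the start and TTCATTTTC, the form read on the other strand, nearer to it. Oas1a held 2 overlapping matches, GAAATGGAA and GAAACTGAA, that begin 20 and 14 bases before the start. Over larger sets, the interferon letters were in 94 of 401 raised genes with a window (23.4%), in 7 lowered genes with a window (6.93%) and in 932 of 12330 tested genes (7.56%). Among all 27025 promoters in the table the share was 8.57%. In the antiviral effector list they were in 16 of 26 windows (61.5%). The sterol letters were in 1 of 17 windows of the cholesterol list (5.88%), against 1.09% of tested genes. The E2F letters were in 3 of 18 windows of the G1/S list (16.7%) and in 0 of 19 of the G2/M list, against 1.93% of tested genes. A match is a run of letters and no measured binding site, and genes of a family can share a promoter by descent.

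Calls in the interferon pathway were few among ligands and receptors and most frequent among effectors. Ifnb1, which encodes interferon beta, had few reads: 4, 4, 2 and 6 at 0 Gy against 61, 12, 43 and 8 at 20 Gy, or 0.0757, 0.0723, 0.0466 and 0.150 CPM against 1.56, 0.283, 1.03 and 0.219 CPM. All irradiated tumours were above all unirradiated ones, but 20 Gy tumours 2 and 4 only slightly (3.14 ± 0.74, adjusted p = 0.0302). The call was kept in 2 of the 8 fits that leave out 1 tumour. Ifnar2, a chain of the receptor for that ligand, rose by 0.47 ± 0.12 (adjusted p = 0.0367) and kept its call in 3 of those 8 fits. Of the 10 ligand and receptor genes tested these 2 were called, with a median log2 fold change of 0.38. Ifng, the interferon of T and natural killer cells, was 1.01 to 3.89 CPM at 0 Gy and 2.05 to 5.24 CPM at 20 Gy, with overlapping groups (0.43 ± 0.54, adjusted p = 0.714).

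Sensors and regulators followed, with 17 of 30 tested members called higher, 0 lower and a median of 1.05. Irf7, the factor that amplifies interferon production, was 227, 268, 309 and 117.5 CPM at 0 Gy and 1643, 728, 1348 and 941 CPM at 20 Gy (2.34 ± 0.35, adjusted p = 0.00489). Ifih1, which encodes the RNA sensor MDA5, was 44.5, 60.2, 58.9 and 28.7 CPM against 185, 93.4, 120.1 and 128.3 CPM (1.45 ± 0.28, adjusted p = 0.0125). Irf9 rose by 0.87 ± 0.16 (adjusted p = 0.0114). In Irf7 and Ifih1 0 Gy tumour 4 was the lowest tumour of all and 20 Gy tumour 2 the lowest irradiated one. All 9 HIN-200 genes of this list, Mndal and Aim2 included, were called higher, with Ifi213 at 2.89 ± 0.40 (adjusted p = 0.00426). The DNA sensor cGAS (Cgas, 0.53, adjusted p = 0.0664), its adaptor STING (Tmem173, 0.25, adjusted p = 0.540), and Irf3 (0.13, adjusted p = 0.625) did not pass the test.

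The antiviral effectors were the group with the most calls, 31 of 34 members higher and 0 lower, with a median of 1.76. The genes that did not pass were Parp14 (1.11, adjusted p = 0.0735), Eif2ak2 (0.63, adjusted p = 0.0746) and Ifitm3 (0.80, adjusted p = 0.0871). Rsad2, which encodes viperin, was 16.4, 28.2, 28.6 and 18.2 CPM at 0 Gy and 225, 58.4, 107.5 and 120.6 CPM at 20 Gy (2.48 ± 0.40, adjusted p = 0.00633). Mx1, a GTPase that blocks influenza viruses, was 20.5, 28.7, 24.3 and 13.2 CPM against 145, 51.7, 114.5 and 92.7 CPM (2.22 ± 0.35, adjusted p = 0.00633). Isg15, the ubiquitin-like modifier, was 100.3, 97.4, 100.9 and 67.4 CPM against 819, 173, 492 and 242 CPM (2.24 ± 0.43, adjusted p = 0.0126). In each of these genes 20 Gy tumour 1 was highest and 20 Gy tumour 2 lowest among the irradiated, and no irradiated tumour fell within the range of the unirradiated. The summed CPM of the list was 2129 to 3337 at 0 Gy and 11107, 5323, 8757 and 7326 at 20 Gy. Counts of called effectors were 15 without 0 Gy tumour 4, 20 without 20 Gy tumour 3 and 24 with Xist as a covariate. The sensor list kept 10 calls without 0 Gy tumour 4.

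Genes of the interferon gamma type and of antigen presentation were mostly above 0 in fold change and mostly not called. Of 21 GTPases and chemokines of that type, 0 were called and all 21 had a positive fold change, with a median of 0.88. At an unadjusted level the spread was wide: Cxcl10, a T cell attractant, measured 270, 260, 371 and 269 CPM at 0 Gy and 1247, 166, 688 and 853 CPM at 20 Gy, so that 20 Gy tumour 2 lay below all unirradiated tumours (1.33 ± 0.47, adjusted p = 0.131). Cxcl9 was 0.21 ± 0.46 (adjusted p = 0.848). Among 19 MHC class I genes 1 was called, H2-M3 (1.03 ± 0.23, adjusted p = 0.0251, kept in 4 of the 8 fits that leave out 1 tumour), with a list median of 0.62. Among 9 MHC class II genes 0 were called, with a median of 0.56.

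**Figure D3:**
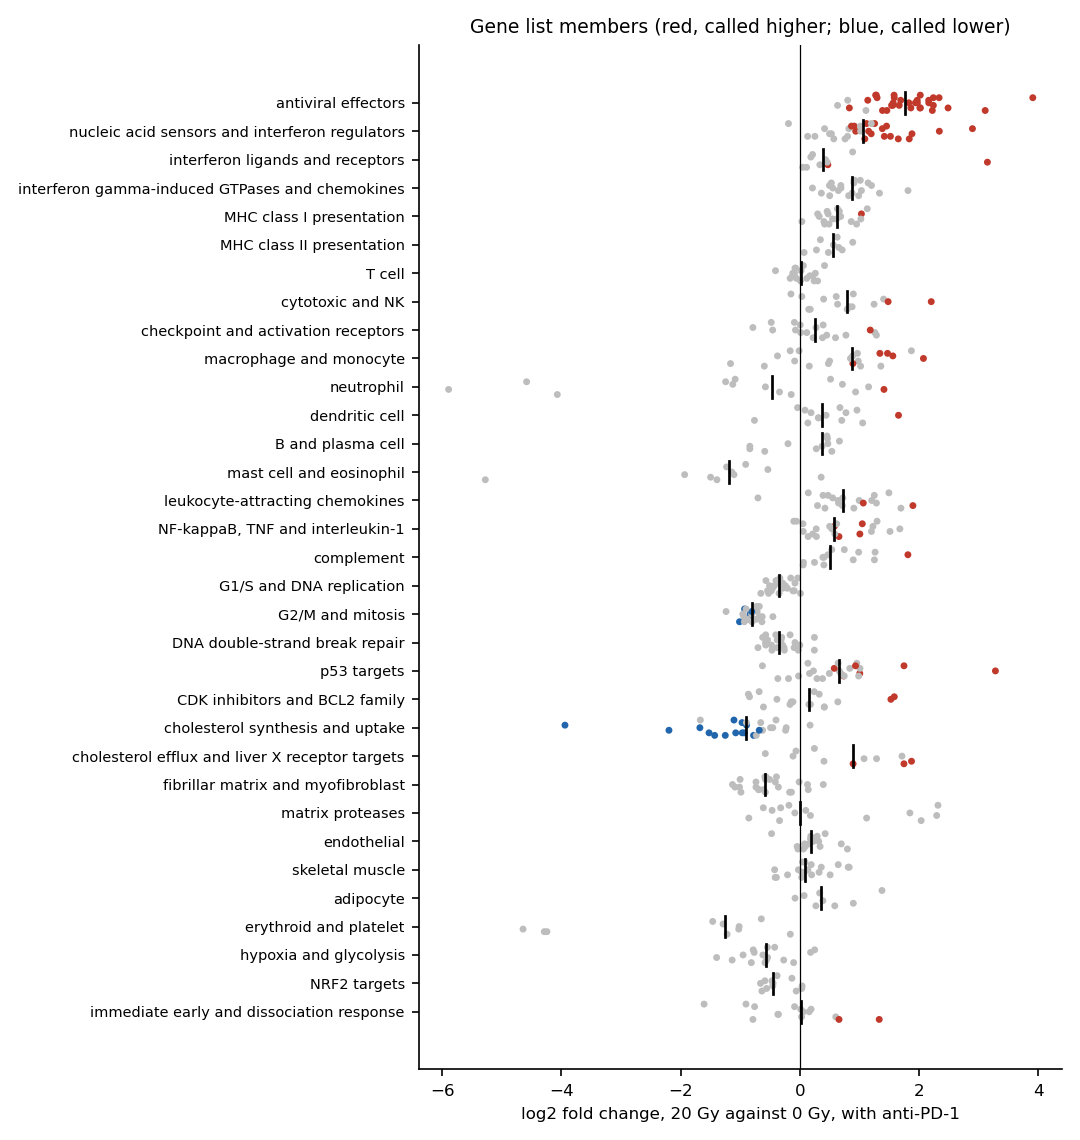
Each point is 1 tested gene of a list, placed by its log2 fold change of 20 Gy against 0 Gy with anti-PD-1, and the black bars are list medians. Red points were called higher and blue points lower. The antiviral effectors (median 1.76) lie right of 0 as a whole, the G2/M genes (median −0.80) left of 0, and the T cell genes (median 0.01) on both sides.

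Of 22 macrophage and monocyte genes, 5 rose, the pan-leukocyte gene Ptprc among them. Ptprc, which encodes CD45, was 210, 150, 291 and 106.7 CPM at 0 Gy and 482, 605, 487 and 526 CPM at 20 Gy (1.47 ± 0.30, adjusted p = 0.0168), with no overlap. The call was lost without 0 Gy tumour 2 or without 0 Gy tumour 4. Fcgr1, the high-affinity Fc receptor of monocytes and macrophages, was 140.5, 105.04, 145 and 59.2 CPM against 326, 331, 398 and 271 CPM (1.56 ± 0.26, adjusted p = 0.00717). Ms4a7 (2.07 ± 0.50), the monocyte chemokine receptor Ccr2 (1.34 ± 0.31) and Cd68 (0.89 ± 0.22) completed the 5 of 22 macrophage and monocyte genes called higher, with 0 lower, a median of 0.87, 16 genes above 0 and 6 below. Ccr2 was the only one of the 5 with overlapping groups. Adgre1, which encodes F4/80, was 120.4, 151, 194 and 41.2 CPM against 234, 569, 240 and 254 CPM and did not pass (1.36 ± 0.41, adjusted p = 0.0799). The summed CPM of the list was 4218 to 7226 at 0 Gy and 6470 to 12356 at 20 Gy, highest in 20 Gy tumour 2, the irradiated tumour with the lowest antiviral sum. The number of called macrophage genes was 1 without 0 Gy tumour 2 or without 0 Gy tumour 4, 2 without 20 Gy tumour 2 or without 20 Gy tumour 3, 3 without 0 Gy tumour 1, and 8 without 20 Gy tumour 4. It was 3 with Xist as a covariate.

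T cell genes gave no called member. All 18 were tested, with 0 higher, 0 lower, a median of 0.01 and 10 above 0. Cd3e (−0.41 ± 0.42, adjusted p = 0.645), Cd4 (0.41 ± 0.54, adjusted p = 0.725) and Cd8a (−0.12 ± 0.40, adjusted p = 0.902) had overlapping groups. Foxp3, of regulatory T cells, was at −0.09 ± 0.41 (adjusted p = 0.929). Pdcd1, the gene of the antibody's target, was at −0.79 ± 0.39 (adjusted p = 0.278). Its ligand gene Cd274 was 75.0, 21.0, 83.0 and 44.1 CPM at 0 Gy and 109.7, 104.96, 157 and 171 CPM at 20 Gy. Although no irradiated tumour lay within the unirradiated range, Cd274 did not pass (1.28 ± 0.40, adjusted p = 0.0852). Cd86, a costimulatory ligand of antigen-presenting cells, was the 1 of 18 checkpoint and activation genes called (1.18 ± 0.30, adjusted p = 0.0400), and kept its call in 3 of the 8 fits that leave out 1 tumour.

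Gzma, a granzyme of natural killer and cytotoxic T cells, was 21.8, 12.6, 19.7 and 11.5 CPM at 0 Gy and 73.2, 51.6, 117.7 and 59.0 CPM at 20 Gy (2.20 ± 0.53, adjusted p = 0.0323). Ncr1, a receptor largely restricted to natural killer and innate lymphoid cells, was 0.972 to 3.35 CPM against 4.57 to 8.17 CPM (1.48 ± 0.34, adjusted p = 0.0256). These were the 2 of 15 cytotoxic and natural killer genes called (3.13% of all genes tested were called higher), with a median of 0.79. In 5 of the 15 every irradiated tumour was above every unirradiated one (5.98% of all genes tested). The count of called genes was 0 without 0 Gy tumour 2, without 0 Gy tumour 4 or without 20 Gy tumour 3, and 1 without 20 Gy tumour 2. Gzmb (1.40 ± 0.47, adjusted p = 0.108) and Prf1 (0.61 ± 0.47, adjusted p = 0.519) did not pass.

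Single calls in lists of this size lie near the 3.13% of all genes called higher. Among other lineages, 1 of 14 neutrophil genes was called, the receptor Csf3r (1.41 ± 0.36), and the list median of −0.46 rested on 0 Gy tumour 3. That tumour held 166 CPM of the granule gene Ngp, against 0.343 to 3.52 CPM in the other 0 Gy tumours. Without it the list median was 0.98. Itgax (1.65 ± 0.38, adjusted p = 0.0255) was the 1 of 14 dendritic cell genes called. B and plasma cell genes had 0 of 11 called and a median of 0.37. The 10 mast cell and eosinophil genes had 0 called and a median of −1.19, with 9 below 0, and this median also rested on 0 Gy tumour 3 (summed CPM 508, against 28.5 to 152 in the other 0 Gy tumours and 16.4 to 109.5 at 20 Gy). Without it the median was −0.17. Ccl7, a monocyte attractant (1.90 ± 0.48), and Cxcl16 (1.06 ± 0.23) were the 2 of 20 chemokine genes called, and Traf1 (1.05 ± 0.21), Nfkbia (0.58 ± 0.12), Icam1 (1.01 ± 0.23) and Birc3 (0.66 ± 0.16) the 4 of 21 in the NF-kappaB and cytokine list. C3ar1, the receptor for complement fragment C3a, rose by 1.81 ± 0.34 as the 1 of 14 complement genes. Without 0 Gy tumour 4 there were 0 called genes in the neutrophil, dendritic cell, chemokine and NF-kappaB lists. The first 3 of these also had 0 without 0 Gy tumour 2 or without 20 Gy tumour 3, where the NF-kappaB list had 1. The neutrophil call was lost without 20 Gy tumour 2 as well, the dendritic cell call without 20 Gy tumour 1, and the chemokines had 1 call without 0 Gy tumour 1 or without 20 Gy tumour 1.

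**Figure D4:**
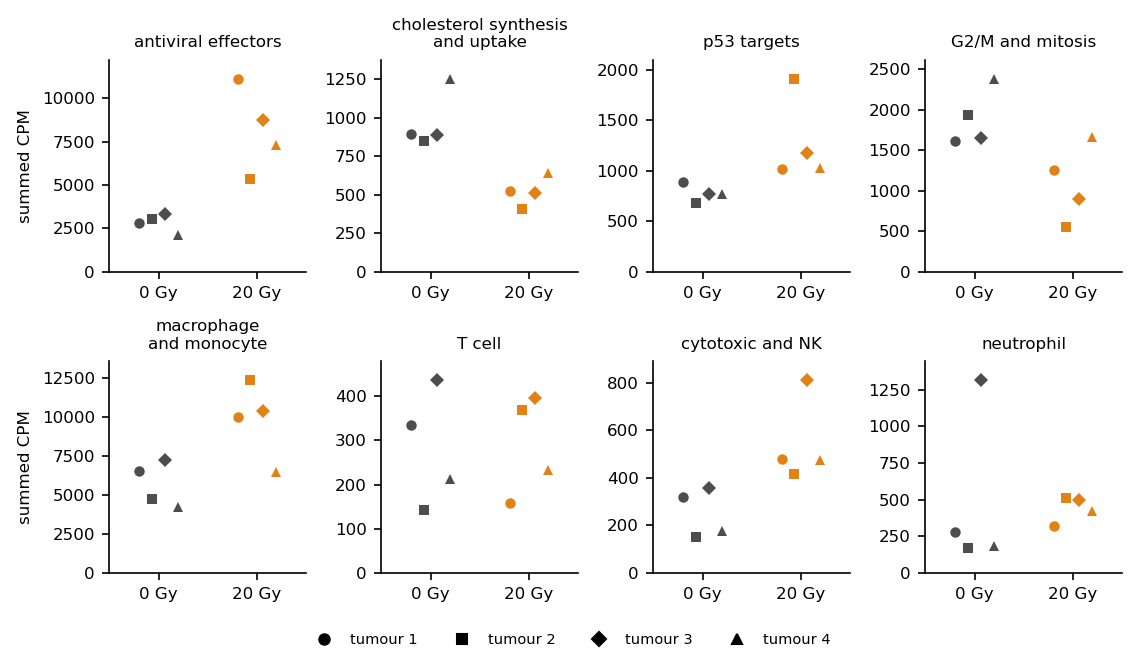
Summed TMM-normalised CPM over 8 gene lists, 1 panel per list, in the 4 tumours at 0 Gy (grey) and the 4 at 20 Gy (orange), with symbols for the tumour number, which pairs nothing across doses. The antiviral sums at 20 Gy (5323 to 11107) all exceed those at 0 Gy (2129 to 3337), while the T cell sums (143.1 to 436 at 0 Gy, 159 to 396 at 20 Gy) overlap.

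Several direct targets of p53 rose in these allografts of a p53/MCA line. Cdkn1a, the cell cycle inhibitor p21, was 83.6, 42.2, 70.4 and 73.9 CPM at 0 Gy and 209, 318, 195 and 184 CPM at 20 Gy (1.75 ± 0.26, adjusted p = 0.00483). Gdf15, a secreted stress factor, was 0.151, 0.0723, 0.210 and 0.324 CPM, or 4 to 13 reads, against 1.61, 2.64, 1.70 and 1.37 CPM (3.28 ± 0.40, adjusted p = 0.00219). Bbc3, the death gene PUMA, was 8.48, 8.82, 8.48 and 7.93 CPM against 16.7, 23.3, 16 and 11.6 CPM (1.0 ± 0.17, adjusted p = 0.00857). The groups did not overlap for any of the 3, and 20 Gy tumour 2 was highest in each. Sesn2 (0.93 ± 0.17), Bax (0.73 ± 0.19) and Mdm2 (0.58 ± 0.13) made up the 6 of 24 targets called higher, with 0 lower and a median of 0.65. Ccng1 was 203, 109.6, 117.8 and 108.8 CPM against 144.01, 536, 273 and 130.8 CPM and did not pass (1.01 ± 0.41, adjusted p = 0.190). For Ccng1, Trp53inp1 (0.99, adjusted p = 0.193) and Eda2r (0.95, adjusted p = 0.350) the irradiated mean was carried by 20 Gy tumour 2, at 536, 133.9 and 33.8 CPM. The summed CPM of the list was 684 to 890 at 0 Gy and 1020, 1908, 1178 and 1024 at 20 Gy. Of the 8 tumours, 20 Gy tumour 2 also had the most Xist (586 CPM) and the least Y-linked RNA (23.5 CPM). Whether host or tumour cells held the p53 target transcripts was not tested. Among 17 CDK inhibitors and BCL2 family genes the 2 called were Bcl2a1b (1.53 ± 0.37) and Bcl2a1d (1.58 ± 0.40), near copies of a leukocyte survival gene. Of the 17 genes, 9 were above 0, with a median of 0.15, and both calls were lost without 0 Gy tumour 2, 0 Gy tumour 4, 20 Gy tumour 2 or 20 Gy tumour 3.

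Mitotic genes stood lower after radiation, with few calls. All 24 genes of the G2/M list had a negative fold change, with a median of −0.80. In 11 every irradiated tumour was below every unirradiated one (2.59% of all genes tested), and 5 were called lower (0.828% of all genes tested). Ccnb2, a mitotic cyclin, was 68.2, 57.3, 52.9 and 64.2 CPM at 0 Gy and 36.1, 17.7, 30.6 and 35.9 CPM at 20 Gy (−1.01 ± 0.19, adjusted p = 0.0121). The others were Bub1 (−0.84 ± 0.19), Nusap1 (−0.81 ± 0.20), Ccna2 (−0.93 ± 0.24) and Aurkb (−0.85 ± 0.23). Mki67, the proliferation marker Ki-67, was 109.4, 188, 171 and 275 CPM against 77.0, 53.1, 74.5 and 178 CPM and did not pass (−0.96 ± 0.34, adjusted p = 0.134). In both genes 20 Gy tumour 2 was lowest, and its summed CPM over the list (553) was below those of the other irradiated tumours (899 to 1667). The count of called G2/M genes was 1 without 0 Gy tumour 2, without 0 Gy tumour 4 or without 20 Gy tumour 3. It was 3 without 0 Gy tumour 3, 20 without 20 Gy tumour 4, 3 with Xist as a covariate and 15 with DESeq2. Replication and repair genes had 0 called members: the 24 G1/S genes had a median of −0.36 and the 24 genes of double-strand break repair a median of −0.35.

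Cholesterol synthesis was the lowered pathway with the most calls. Of 25 genes of synthesis and uptake, 14 were called lower (0.828% of all genes tested were) and 0 higher, with a median of −0.90. In 16 every irradiated tumour was below every unirradiated one (2.59% of all genes tested). The calls run along the pathway, from Hmgcs1 (−0.93) through Mvd, Idi1, Fdft1 (−0.97), Sqle (−1.43) and Lss (−1.11) to Cyp51. Srebf2, the transcription factor that induces these genes when sterol is scarce, was 132.2, 181, 147 and 214 CPM at 0 Gy and 75.6, 55.4, 69.9 and 118.6 CPM at 20 Gy (−1.08, adjusted p = 0.0173). Its groups did not overlap, with 0 Gy tumour 4 highest and 20 Gy tumour 2 lowest. Without 0 Gy tumour 4 the list kept 8 calls, and with Xist as a covariate 13.

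Some genes of cholesterol export rose. Of 11 efflux and liver X receptor target genes, 3 were called higher and 0 lower, with a median of 0.89. Abcg1, a sterol exporter, was 59.6, 88.9, 106.1 and 27.7 CPM at 0 Gy and 289, 276, 230 and 239 CPM at 20 Gy (1.87 ± 0.38, adjusted p = 0.0164). Nr1h3, the liver X receptor alpha found in macrophages, rose by 1.74 ± 0.43 (adjusted p = 0.0367) and Abca1 by 0.89 ± 0.24 (adjusted p = 0.0472). Nr1h3 kept its call in 3 and Abca1 in 1 of the 8 fits that leave out 1 tumour. These genes are also expressed by macrophages, whose summed markers overlapped between doses (4218 to 7226 CPM against 6470 to 12356 CPM) and exceeded all unirradiated tumours in 20 Gy tumours 1, 2 and 3 but not 4, and how far one goes with the other was not tested.

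Other compartments gave few calls or none. Called members were 0 of 24 for fibrillar matrix and myofibroblasts (median −0.58, with Col1a1 at −0.41 ± 0.70), 0 of 14 for matrix proteases (median 0.01) and 0 of 17 for endothelium (median 0.18). They were also 0 of 19 for skeletal muscle (median 0.09), 0 of 8 for adipocytes (0.36), 0 of 9 for Schwann cells (0.33), 0 of 3 for keratinocytes and 0 of 10 for erythroid and platelet genes (−1.25). The muscle sums spread widely in both groups, from 2919 to 18026 CPM at 0 Gy and from 2417 to 16124 CPM at 20 Gy. Without 20 Gy tumour 2 the medians were −0.84 for adipocytes, −0.42 for muscle and −0.07 for Schwann cells. Which cells held the adipocyte, muscle and keratinocyte transcripts was not tested. Stress programmes were also without called genes, 0 of 16 for hypoxia and glycolysis (median −0.57, 14 below 0) and 0 of 12 for NRF2 targets (−0.45). Atf3 (1.33 ± 0.34, adjusted p = 0.0434) and Zfp36 (0.66 ± 0.18, adjusted p = 0.05) were the 2 of 15 immediate early genes called. They kept their call in 2 and 0 of the 8 fits that leave out 1 tumour.

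The isotype-treated allografts, which share no tumour with these 8, gave a radiation effect of the same kind. There 912 genes were called, 780 of them higher (4.4% of genes tested) and the rest lower (0.744%). The count was 196 with the first digit of the animal identifier as a covariate, a digit that was 5 in all 4 isotype tumours at 0 Gy and 4 in 3 of the 4 at 20 Gy. Without 1 tumour it was 294 (without 0 Gy tumour 2), 302 (0 Gy tumour 4), 353 (0 Gy tumour 1), 450 (20 Gy tumour 4), 512 (20 Gy tumour 3), 588 (20 Gy tumour 1) and 1415 (0 Gy tumour 3). Both arms called 489 genes, which is 69.6% of the anti-PD-1 and 53.6% of the isotype calls, and all 489 had the same sign. Of the 703 called with anti-PD-1, 700 had the same sign with isotype, the exceptions being Baiap2l2, Rnf17 and 6430550D23Rik. The size was similar too. The median absolute log2 fold change of these genes was 1.24 with anti-PD-1, where they were called. With isotype the median change, counted positive in the anti-PD-1 direction, was 1.12. The difference between arms was tested as the dose by antibody interaction, which called 0 genes (0%), with a smallest adjusted p of 0.864 in edgeR and 0 calls by DESeq2 and limma-voom. At an unadjusted p under 0.05 were 269 genes (1.52%), and 13 of the 703. That number rested on single tumours: it was 2058 of 18078 genes without anti-PD-1 20 Gy tumour 4 (smallest adjusted p 0.425), 997 of 18034 without isotype 0 Gy tumour 3 (smallest adjusted p 0.113) 923 of 18028 without isotype 20 Gy tumour 1, 837 of 18052 without anti-PD-1 0 Gy tumour 1 and 681 of 18106 without anti-PD-1 20 Gy tumour 1. It was at most 276 in the other 11 fits without 1 tumour, and all these fits had 0 calls. With 4 tumours per group the interaction has a larger error than a single dose effect (0.42 against 0.33 for Slfn4), so that modest differences between arms may not be detectable.

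Side by side, interferon lists had larger medians with isotype. The antiviral effectors were at 1.76 with anti-PD-1 and 2.23 with isotype, the sensors at 1.05 and 1.41, the interferon gamma type genes at 0.88 and 1.54 and the MHC class I genes at 0.62 and 1.05. Called higher with isotype were 34, 25, 9 and 9 genes of these lists, against 31, 17, 0 and 1 with anti-PD-1. Slfn4 went the other way, at 3.91 ± 0.33 with anti-PD-1 and 3.09 ± 0.32 with isotype. Its interaction was 0.81 ± 0.42, at an unadjusted p of 0.069. Irf7 was at 2.34 ± 0.35 and 3.12 ± 0.36, with an interaction of −0.78 ± 0.47. G2/M genes had a median of −0.80 with anti-PD-1 and −0.33 with isotype, with 5 and 1 called, and cholesterol synthesis −0.90 and −0.74, with 14 and 12 called. Apart from the antiviral effector Slfn9 (interaction −0.58 ± 0.26), no gene of these 6 lists had an unadjusted interaction p under 0.05. Other lists differed more between arms: adipocyte genes had medians of 0.36 with anti-PD-1 and −4.02 with isotype, with 5 of 8 genes at an unadjusted interaction p under 0.05, and B and plasma cell genes 0.37 and −0.51, with 2 of 11. The adipocyte median with anti-PD-1 rested on 20 Gy tumour 2 (summed CPM 1089, against 97.01 to 429.5 in the other irradiated tumours) and was −0.84 without it. None of these genes passed adjustment.

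Among the called genes that differed most between arms were 2 lowered with anti-PD-1. Fkbp5, a glucocorticoid-induced chaperone, was 147, 332, 239 and 126.4 CPM at 0 Gy and 62.6, 79.1, 75.7 and 66.6 CPM at 20 Gy (−1.57 ± 0.34, adjusted p = 0.0207). It was at −0.34 with isotype, and the interaction was −1.23 with an unadjusted p of 0.020. Fads2, a fatty acid desaturase, was 24.6, 26.2, 24.7 and 38 CPM against 8.09, 6.58, 8.26 and 15.6 CPM (−1.56 ± 0.30, adjusted p = 0.0119), with −0.65 in the isotype arm and an unadjusted interaction p of 0.043. Neither difference passed adjustment over all genes, and both genes were picked after their values were seen.

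**Figure D5:**
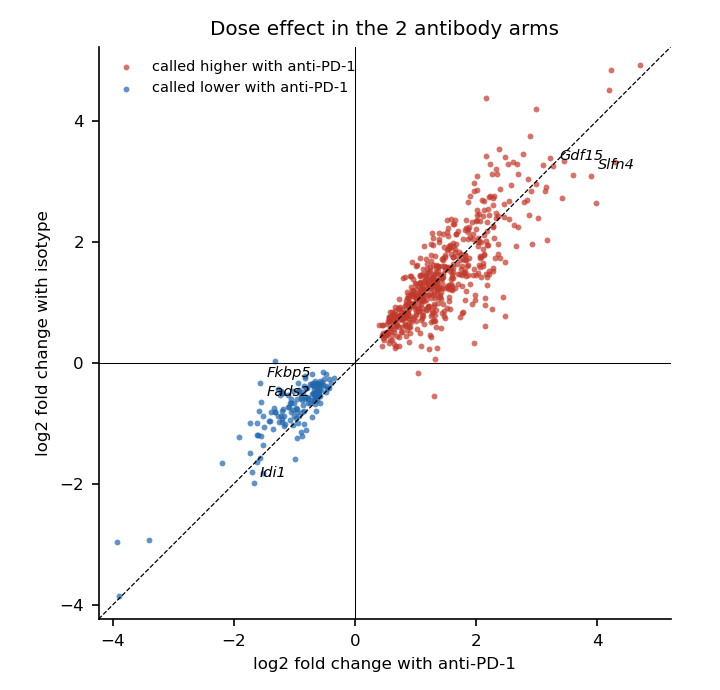
Log2 fold change of 20 Gy against 0 Gy in the isotype arm (y axis) against that in the anti-PD-1 arm (x axis) for the 703 genes called with anti-PD-1, red where higher and blue where lower. The broken line marks equal change. 700 of the 703 points lie in the quadrants of equal sign. In the anti-PD-1 direction, 412 (58.6%) have a larger change with anti-PD-1, the arm in which they were called.

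Primary tumours under the same antibody were compared with these allografts in a fit of all 48 tumours. In the primary tumours 2156 of 19327 genes were called (11.2%), with 8 tumours per dose. For the allografts, this fit gave far fewer calls than the 703 of the fit of 16 allografts (11 lower, the other 90.4% higher). The 703 and the 2156 thus come from unlike fits and from unequal numbers of tumours. Of the 703 genes, 404 were also called in the primary tumours and 676 had the same sign. The interaction of tumour kind with dose called 0 genes (0%) in edgeR, with a smallest adjusted p of 0.287 and 922 genes at an unadjusted p under 0.05. DESeq2 called 3 genes, Car4, Rem2 and Ppbp. The antiviral effectors had a median of 1.70 in primary tumours, cholesterol synthesis −0.91 and the G2/M genes −0.84, close to the 1.76, −0.90 and −0.80 of the allografts. The interferon gamma type genes were at 1.55 with 20 of 21 called, from 8 tumours per dose. In the fit of 16 allografts, with 4 tumours per dose, they were at 0.88 with 0 called. Of these 21 genes, 2 had an unadjusted p under 0.05 for the tumour kind interaction, and 0 passed adjustment. Gdf15 was at 3.28 in allografts and 1.32 in primary tumours, a difference with an unadjusted p of 0.0053. Neutrophil genes had a median of −0.46 in allografts and 1.97 in primary tumours, with 6 of 14 at an unadjusted interaction p under 0.05, and the allograft value there rests on 0 Gy tumour 3. NRF2 targets had medians of −0.45 in allografts and 0.58 in primary tumours, with 6 of 12 at that level. Hypoxia and glycolysis genes had −0.57 and 0.23, with 6 of 16.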

How the data were processed

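The deposited file is a table of raw read counts for 36854 Ensembl genes in 48 columns, all matched to listed samples. It is named as a first run. Libraries were stranded and poly(A)-selected from RNA with an integrity number above 7, per the labels' protocols. Trimmomatic 0.36, STAR, HTSeq and the mm10 build are named in the submitters' processing notes. Annotation and counting strand are not given in the sources used here, so antisense and overlapping genes are uncertain. GENCODE annotation named 36796 genes. From the deposited counts, filterByExpr kept 17746 genes in the 16 allografts, which entered 1 edgeR quasi-likelihood fit with a coefficient per group after TMM scaling. The tumour kind interaction used all 48 tumours (19327 genes). Benjamini-Hochberg adjustment ran over every gene in a fit, a call is an adjusted p under 0.05, and the SE is the fold change divided by the root of F. CPM values are TMM-normalised. Labels name separate tumours of separate animals. Library pairs differed by far more than counting noise (chi-square per degree of freedom from 112), so none was a duplicate. Reads carry no molecular identifiers.

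The tumours, the gene lists and the rule for named genes were chosen with earlier results of these data known. The rule names the 10 higher and 10 lower called genes of smallest p with at least 5 CPM in the higher group, up to 4 called members per list or, where under 2 are called, the 2 most expressed, and 21 fixed genes. Per-tumour values of further list members, chosen after they were seen, are given for Rsad2, Mx1, Isg15, Ifih1, Oas1a, Srebf2, Ngp, Ccng1, Trp53inp1 and Eda2r. Some genes the rule selects are not reported here. Alternatives were other scalings, filters and tools, covariates (first digit of the animal identifier, Xist above 10 CPM, muscle genes), other sets of tumours and leaving out each tumour. The fit was tested on simulated data. Software was R 4.3.3, edgeR 4.0.16, limma 3.58.1 and DESeq2 1.42.0.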

Additional observations from a re-analysis of the deposited data

Results flagged for a closer look

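In 12 of 152 groups of 4 tumours examined (named genes, summed lists and library measures), 1 tumour stood apart from the other 3 by Dixon's criterion. For normally distributed values chance alone meets it in about 1 group in 20. The groups are not independent, and the sex-linked sum contains Xist. In 20 Gy tumour 3 the flagged groups were Slfn4, at 413 CPM against 212 to 223 CPM in the other irradiated tumours, and the summed cytotoxic and natural killer genes, at 809 against 416 to 477 CPM. In 20 Gy tumour 2 they were Adgre1 (569 against 234 to 254 CPM), Xist (586 against 0.886 to 99.9 CPM), the summed B and plasma cell genes (437 against 215 to 234 CPM) and the summed sex-linked genes (609 against 137.01 to 178 CPM). In 20 Gy tumour 4 it was Foxp3 (6.62 against 2.14 to 2.61 CPM).

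In 0 Gy tumour 4 it was the summed cholesterol synthesis genes (1250 against 850 to 892 CPM), which widens the difference from the irradiated group. In 0 Gy tumour 3 it was Cxcl10 (371 against 260 to 270 CPM), Ly6g (1.70 against 0.199 to 0.374 CPM) and the summed neutrophil genes (1315 against 168 to 275 CPM). In 0 Gy tumour 2 it was Xist (75.8 against 0.125 to 0.397 CPM).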

How the results depend on the processing

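Calls are compared as percent of the genes tested in each fit, which held unequal numbers of genes. The 3.96% called with anti-PD-1 (703 genes) became 9.38% with DESeq2 (1664), 0.595% with all 48 tumours in the fit, 0.0462% with only the tumours whose identifiers begin with 5 (9 genes), 0.0059% with only the 2 groups compared (1 gene) and 1.46% in that fit at an adjusted p under 0.10 (248). Without 1 tumour the share ranged from 1.02% to 7.05% (184 to 1275 genes). In each of these fits every one of the 703 genes that was tested kept its sign. All share tumours with the main fit, so direction was unlikely to change, and the causes of the changed counts were not tested. The other 8 alternatives gave 507 calls (Xist as a covariate) to 910 calls, with 1.6% when no filter on low counts was used. The 5.14% called with isotype (912 genes) became 8.62% with DESeq2, 1.1% with the identifier digit and 2.82% with Xist as a covariate, and 1.63% to 7.85% without 1 tumour. The dose by antibody interaction had 0 calls under each alternative, also without 1 tumour, and so had the tumour kind interaction except for 0.0155% (3 genes) with DESeq2. Of the 57 named genes called, 30 kept their call in all 8 fits without 1 tumour. No named gene reversed under any alternative, though these fits too share tumours with the main fit. Counting error weighs on values below 1 CPM, such as those of Ifnb1 in most tumours and of Gdf15 at 0 Gy. No paired analysis was possible because the labels give no replicate number shared between groups.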

Other observations

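Gene families were chosen after the called genes had been seen and are therefore given as values only. Some members, such as most HIN-200 genes, Ms4a7 and Parp14, are also in the lists above. Aim2 is in a list and counts under both inflammasome and HIN-200 genes. Other members added innate immune receptors to the genes higher after 20 Gy (3.13% of all genes tested were). Of 17 inflammasome genes, 8 were called higher, among them Casp1 (26.6, 14.8, 28.2 and 11.5 CPM at 0 Gy, 41.9, 66.3, 68.1 and 44.1 CPM at 20 Gy), Casp4 (log2 fold change 1.56), Naip5 (1.26) and Nlrp3 (1.01). The family median was 1.2 with anti-PD-1 and 1.22 with isotype. Of 12 Toll-like receptors, 5 were called (Tlr1, Tlr2, Tlr6, Tlr9 and Tlr13), with Tlr2, which senses bacterial lipoproteins, at 0.86. Myeloid surface families had 6 of 11 Cd300 genes, 5 of 12 Ms4a genes, 4 of 8 Clec4 genes and 5 of 8 paired immunoglobulin-like receptors called higher, and 0 called lower. Called higher as well were 6 of 7 Schlafen genes, 2 of 5 Fc gamma receptor genes and 2 of 3 Trim12 and Trim34 genes. Some families had few calls or none: 3 of 14 cathepsins, 1 of 6 Siglec genes, 0 of 18 vacuolar ATPase genes, 0 of 10 apolipoprotein L genes and 0 of 6 Parp and Dtx genes were called higher, and 0 lower. Cd72 went from 70, 153, 89.4 and 30.8 CPM to 551, 394, 327 and 319 CPM, and Slamf9 from 26.0, 40.0, 23.7 and 9.42 CPM to 246, 185, 158 and 102.8 CPM.

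All 13 tested HIN-200 genes, all 4 Trim30 genes and all 4 Phf11 genes were called higher, with family medians of 1.52, 1.83 and 2.08, though near copies within each can share reads. Trp53cor1, the p53-induced long noncoding RNA lincRNA-p21 that neighbours Cdkn1a, was 0.303, 0.199, 0.349 and 0.0997 CPM at 0 Gy and 1.3, 2.83, 1.58 and 1.2 CPM at 20 Gy (2.84 ± 0.39, adjusted p = 0.00426 in edgeR), again highest in 20 Gy tumour 2. Fatty acid synthesis and desaturation had 4 of 18 genes lower (Fads1, Fads2, Elovl6 and Scd2) and 1 higher (Fads6).

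Mast cell proteases gave the largest falls among the families examined. Mcpt1 was 4.6, 2.15, 12.6 and 2.94 CPM at 0 Gy and 0.461, 0.283, 0.455 and 0.902 CPM at 20 Gy (−3.41 ± 0.62, adjusted p = 0.0103). Mcpt2 was 14.7, 9.72, 51.3 and 8.73 CPM against 0.640, 0.990, 1.65 and 2.35 CPM (−3.91 ± 0.72, adjusted p = 0.0110). These were the 2 called of 8 chymase, tryptase and related genes, among them Cpa3 and Mcpt8. Both were highest in 0 Gy tumour 3, while the connective tissue mast cell genes Cma1 (−1.39, adjusted p = 0.398) and Tpsb2 (−1.93, adjusted p = 0.196) did not pass. Their 0 Gy means also rested on 0 Gy tumour 3, with Cma1 at 68.1 CPM against 3.70 to 27.8 CPM in the other 0 Gy tumours and 1.94 to 18.8 CPM at 20 Gy, and Tpsb2 at 115.4 CPM against 7.14 to 46.0 CPM and 2.87 to 23.6 CPM.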
